A study of Mus musculus with 6 samples.

Results

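The hearts of 3 WT and 3 Mc4r KO mice were compared for the 126 protein-coding genes whose start lies within 10 Mb of Mc4r, from 56860000 to 76860000 on chromosome 18 of mm10. These genes were chosen by position, out of 54532 genes in the deposited table, and Mc4r itself was left out. The mice were 12 weeks old, males by the study's account, and were kept on the C57B/6/N background. WT and homozygous Mc4r KO mice were littermates from matings of heterozygotes, and both groups had standard chow and no treatment. The deletion was present in the whole animal, and the construction of the allele and the strain of the cells in which it was made are not given in the sources used here. Polyadenylated RNA was sequenced with 1 library per mouse. Expression was deposited as FPKM, a fragment count divided by gene length in kilobases and scaled by 1 factor per library.

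Mc4r encodes a receptor for melanocyte-stimulating hormone that acts mainly in the hypothalamus, where it restrains food intake. In a mouse line with a targeted gene, the neighbouring genes on the chromosome are inherited together with the targeted allele, because crossovers between close genes are rare. The genes around a targeted locus are therefore often looked at on their own, apart from the other genes that differ between mutant and wild-type littermates. The region around Mc4r holds genes of several unrelated functions, among them a pair of further melanocortin receptors, SMAD genes of the TGF-beta pathway, receptors of macrophages and mural cells, and enzymes of mitochondria.

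The WT libraries held 14767929 to 16047003 reads on genes, as recovered from the FPKM, and the Mc4r KO libraries 14691076 to 15649074. Of these, 59494 to 77235 per library fell on the flanking genes. The summed FPKM of 5 markers of heart muscle (Myl2, Myl3, Myh6, Tnnt2 and Tnni3) lay from 8792 to 9211 in WT against 9616 to 10292 in Mc4r KO hearts, without overlap. Of the 5, only Myl2 was without overlap by itself, as were 26.4% of all genes tested, and their log2 fold changes ran from -0.00504 to 0.25. The sum of 5 markers of skeletal muscle lay from 0.253 to 0.868 in WT against 0.201 to 0.418 in Mc4r KO hearts. The sum over 4 atrial markers ran from 28.6 to 747 in WT against 6.29 to 136 in Mc4r KO hearts, with the highest value in WT replicate 3, and that of 5 red cell genes ran from 859 to 6344 in WT against 620.3 to 1651 in Mc4r KO hearts. The libraries of the groups overlapped in both of these sums. Of the atrial markers, Myl7 was at 0.240, 28.1 and 307 in WT against 38.8, 0.558 and 0.528 in Mc4r KO hearts. Sln was at 0, 8.35 and 68.8 against 8.99, 0 and 0, and Nppa at 28.2, 52.2 and 314 against 80.9, 5.40 and 42.9. Myl7 and Sln were thus high in WT replicates 2 and 3 and Mc4r KO replicate 1, and at or near 0 elsewhere. The labels give the tissue as heart and the study's discussion speaks of the left ventricle, and neither says whether atrium was taken. The part of atrial tissue in each library was not tested. The mitochondrially encoded genes made up 47.1% to 59.3% of all FPKM in WT and 43.0% to 46.6% in Mc4r KO hearts. WT replicate 3 (47.1%) was the WT library closest to the Mc4r KO libraries, and its log2 levels correlated more closely with Mc4r KO replicate 1 (r = 0.962, across genes whose mean FPKM reached 1) than with WT replicates 1 (0.946) and 2 (0.952). The part of these differences in the results given here was not tested, except where a value without that library or with the mitochondrial share as a covariate is given.

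Of the 126 flanking genes, 74 lie at lower coordinates than Mc4r and 52 at higher ones. At a mean FPKM of 0.1 or more, 94 entered the test and 32 did not. Of the 32, 18 had no read in any library. The genes that were not tested include the remaining melanocortin receptors of the region. Mc5r, at 1.48 Mb from Mc4r, had no read in any library, and Mc2r, the receptor for adrenocorticotropic hormone, had 1 read in WT replicate 3 and 1 read in Mc4r KO replicate 2. Grp, Htr4, Dcc, Myoz3, Il17b and Skor2 were also without a read in the 6 libraries. Mc4r itself (66857715 to 66860472) was represented by 2 reads from WT replicate 3, and by 0 reads elsewhere, which is below the floor of 3 reads used here, so the genotype could not be checked from its level. Each floor and count refers to reads as fragments and covers counting error only.

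The levels of the tested genes ran, as means of the 6 libraries on the FPKM scale, which is corrected for gene length, from 0.105 for Slc27a6 to 605 for Acaa2. Acaa2, the thiolase of the last step of mitochondrial beta-oxidation, had an FPKM of 501, 553 and 668 in WT against 580.3, 653 and 672 in Mc4r KO hearts. It made up 33.0% to 38.3% of the FPKM of all flanking genes in WT and 34.8% to 40.1% in Mc4r KO hearts, and its groups overlapped (log2 fold change 0.15, standard error 0.14, adjusted p = 0.564, limma). Rps14, a protein of the small ribosomal subunit, came next with an FPKM of 194, 164 and 179 in WT against 200.3, 191 and 189.9 in Mc4r KO hearts, and 8.52% of its 50-base words also occur in transcripts of other genes. An FPKM of at least 10 was reached by 29 of the 126 genes on average, and of at least 1 by 72.

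The groups were compared with limma on log2(FPKM + 0.1) over all 18035 genes whose mean FPKM reached 0.1. The p-values are two-sided, and adjusted p refers to Benjamini-Hochberg correction across those genes. A call here needs both a log2 fold change beyond 0.75 in either direction and an adjusted p below 0.05. Fold changes on this scale understate the change of weakly expressed genes. With 3 mice in each group, the smallest p of an exact permutation test is 0.1, and each gene described here as without overlap between the groups has that p.

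Limma called 2 of the 94 flanking genes, Synpo and Alpk2, both higher in the Mc4r KO mice. Over all genes tested 0.46% were called, 0.316% as higher and 0.144% as lower in the Mc4r KO mice, and among the protein-coding genes 0.443%. At an unadjusted p under 0.05 there were 20 of the 94 (21.3%), against 20.9% of all genes and 23.8% of the protein-coding genes tested. Of these, 10 were higher in the Mc4r KO mice (12% of all genes) and 10 lower (8.83%). In 32 of the 94 (34.0%) there was no overlap between WT and Mc4r KO hearts, against 26.4% of all genes and 31% of the protein-coding genes tested, so both shares lay near those of other genes. The median log2 fold change was -0.054 over the flanking genes and -0.011 over all genes tested, with 42 flanking genes above 0 and 52 below 0. The other 277 tested protein-coding genes of chromosome 18 held 0 calls by limma, with 57 (20.6%) at an unadjusted p under 0.05 and 68 (24.5%) without overlap. Without WT replicate 3, limma called 4 flanking genes, and 4.04% of all genes. When another library was left out in its place, 0 flanking genes were called, with 13 to 19 at an unadjusted p under 0.05 (13.9% to 16.3% of all genes). Limma voom on the recovered reads called 4 (1.76% of all genes), array weights gave 3 (2.41%), and a test of the protein-coding genes alone gave 3 (1.51%).

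**Figure D1:**
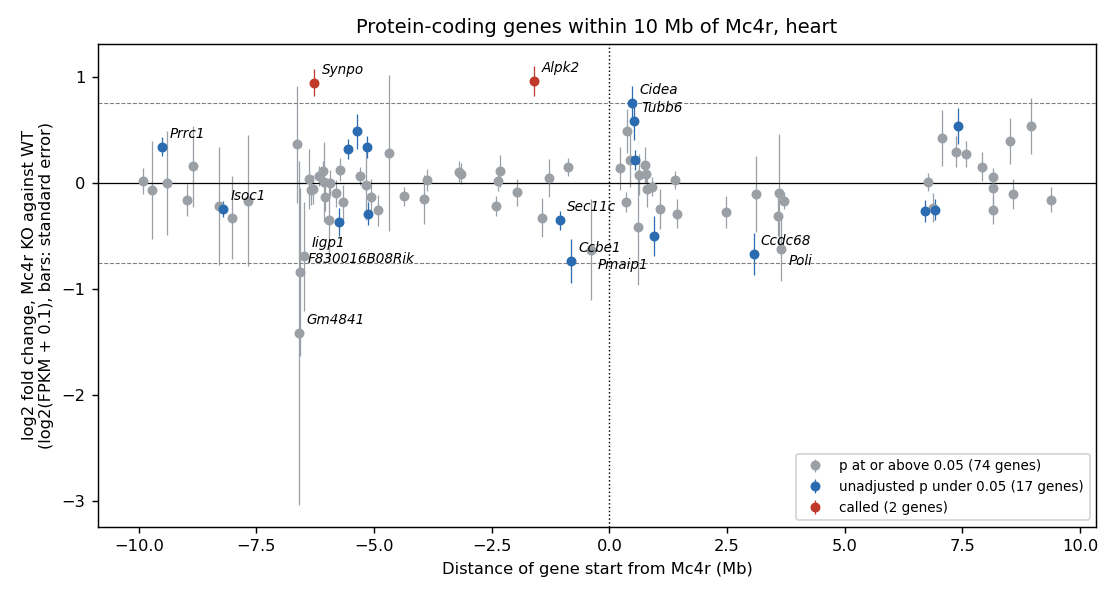
Log2 fold change of 93 of the 94 tested flanking genes, Mc4r KO against WT (y axis, log2(FPKM + 0.1) scale, bars show the standard error), against the distance of the gene start from Mc4r in Mb (x axis, negative values at lower coordinates). Dashed lines mark a change of 0.75 in either direction, the dotted line marks Mc4r, and the 2 called genes, Synpo and Alpk2 (red), both lie on the side of lower coordinates.

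Synpo (ENSMUSG00000043079; chromosome 18, 60593973 to 60660142) encodes synaptopodin, an actin-associated protein known from podocytes and dendritic spines. Its FPKM was 7.40, 9.94 and 9.26 in WT (replicates 1 to 3) against 15.8, 17.8 and 17.5 in Mc4r KO hearts (replicates 1 to 3). All Mc4r KO libraries lay above all WT libraries, and the gap between the groups was larger than the range within either of them. The means were 8.87 ± 1.31 (SD, n = 3) in the WT mice and 17.0 ± 1.07 (SD, n = 3) in the Mc4r KO group, and the gene rose in the Mc4r KO mice (log2 fold change 0.94, standard error 0.13, adjusted p = 0.0415, limma). Alpk2 (ENSMUSG00000032845; chromosome 18, 65265529 to 65393888) encodes an atypical alpha kinase that is expressed in heart muscle. Its FPKM was 10.02, 13.2 and 10.9 in WT (replicates 1 to 3) against 19.3, 22.01 and 25.3 in Mc4r KO hearts (replicates 1 to 3). Here too the groups stood apart, with means of 11.4 ± 1.65 (SD, n = 3) in the WT mice and 22.2 ± 2.99 (SD, n = 3) in the Mc4r KO group, and the gene rose (log2 fold change 0.96, standard error 0.14, adjusted p = 0.0445, limma). In GENCODE M21, 18.1% of the exonic sequence of Alpk2 is covered by exons of 2 genes on the opposite strand, neither of which is in the deposited table. The calls of Synpo and Alpk2 were kept without WT replicate 3 (adjusted p = 0.0162 and 0.0244, limma) and lost when any other single library was left out, where the adjusted p lay between 0.0853 and 0.163 for Synpo and between 0.0853 and 0.176 for Alpk2. With the mitochondrial share as a covariate the log2 fold changes were 0.83 and 0.97, and the adjusted p was 0.263 for each (limma).

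Close to Mc4r, the first tested gene at lower coordinates is Pmaip1, 0.401 Mb away, which encodes the pro-apoptotic BH3-only protein Noxa. It was weakly expressed, with 6, 10 and 14 reads in WT against 9, 1 and 7 in Mc4r KO hearts, and the groups overlapped (log2 fold change -0.63, adjusted p = 0.499, limma). Ccbe1, 0.815 Mb away (chromosome 18, 66045302 to 66302739), encodes a secreted protein needed for the growth of lymphatic vessels. Its FPKM was 2.01, 1.56 and 2.61 in WT against 1.12, 1.07 and 1.33 in Mc4r KO hearts, so each Mc4r KO library lay below each WT library, although the WT libraries were also spread widely (log2 fold change -0.74, standard error 0.21, adjusted p = 0.121, limma). It was called by limma voom on the recovered reads (adjusted p = 0.0448). Lman1, a cargo receptor between the endoplasmic reticulum and the Golgi, was at 11.3, 12.0 and 12.2 in WT against 12.2, 13.5 and 13.7 in Mc4r KO hearts. Its groups did not overlap, with a very narrow gap between WT replicate 3 and Mc4r KO replicate 1 (log2 fold change 0.15, adjusted p = 0.374, limma).

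Sec11c (ENSMUSG00000024516; chromosome 18, 65800549 to 65817665), a catalytic subunit of the signal peptidase, lies 1.06 Mb from Mc4r. The FPKM was 4.99, 4.99 and 5.01 in WT (replicates 1 to 3) against 3.93, 3.97 and 3.7997 in Mc4r KO hearts (replicates 1 to 3). The libraries of each group lay close together, and the Mc4r KO libraries were all below the WT libraries, at a mean of 3.90 ± 0.0886 against 4.996 ± 0.0102 (SD, n = 3 each). Limma gave a log2 fold change of -0.35 with an adjusted p of 0.106 (standard error 0.089, unadjusted p = 0.00536), which is short of both thresholds of a call. Zfp532, a zinc finger gene 1.28 Mb away, was at 1.70, 2.52 and 2.23 (WT) and 1.91, 2.26 and 2.46 (Mc4r KO), with overlapping groups, and exons of other genes on the opposite strand cover 28.7% of its exonic sequence.

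On the side of higher coordinates, Gnal, 0.228 Mb away, encodes a stimulatory G protein alpha subunit. Its FPKM was 0.468, 0.459 and 0.489 in WT against 0.481, 0.583 and 0.530 in Mc4r KO hearts, and the groups overlapped (log2 fold change 0.14, adjusted p = 0.738, limma). Chmp1b, a component of the membrane-cutting ESCRT-III complex, with 24.0% of its exonic sequence under another gene's exons on the opposite strand, was at 7.45, 7.62 and 6.53 in WT against 6.29, 6.37 and 6.33 in Mc4r KO hearts, with all Mc4r KO libraries below the WT libraries (log2 fold change -0.18, adjusted p = 0.333, limma). Mppe1, which trims the anchor of GPI-linked proteins, was at 2.97, 4.61 and 5.03 in WT against 5.23, 6.72 and 5.53 in Mc4r KO hearts, with all Mc4r KO libraries above (log2 fold change 0.49, adjusted p = 0.24, limma). The exons of Mppe1 and Gnal lie partly on top of each other on opposite strands, over 23.6% of the exonic sequence of Mppe1, and reads in that stretch cannot be assigned without strand information. Impa2, an inositol monophosphatase, had overlapping groups at 7.39, 9.64 and 10.7 (WT) and 7.33, 11.6 and 14.2 (Mc4r KO), and 23.6% of its exonic sequence lies under exons of another gene on the opposite strand.

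Cidea (ENSMUSG00000024526; chromosome 18, 67343564 to 67367794) encodes a protein that enlarges lipid droplets and is best known from brown fat. It lies 0.484 Mb from Mc4r. Its FPKM was 12.1, 14.7 and 15.7 in WT (replicates 1 to 3) against 19.3, 27.0 and 26.2 in Mc4r KO hearts (replicates 1 to 3). Every Mc4r KO library lay above every WT library, at a mean of 24.2 ± 4.23 against 14.2 ± 1.86 (SD, n = 3 each). The difference did not pass the threshold (log2 fold change 0.76, standard error 0.16, adjusted p = 0.0791, limma), but the gene was called without WT replicate 3 (adjusted p = 0.0356, limma), with array weights (0.041), with protein-coding genes only (0.0442) and with limma voom on the recovered reads (0.0311). It was not called when any other single library was left out (adjusted p between 0.108 and 0.26), and with the mitochondrial share as a covariate its log2 fold change was 0.58 (adjusted p = 0.485, limma). The summed FPKM of the 4 adipocyte markers Adipoq, Plin1, Cfd and Lep lay from 0.466 to 0.876 in WT against 0.0283 to 0.223 in Mc4r KO hearts, and Lep and Ucp1, the last of which defines brown fat, were listed at 0 in all 6. Cfd made up most of the adipocyte sum in the WT libraries (0.385 to 0.831) and in Mc4r KO replicate 1 (0.21), and was 0 in Mc4r KO replicates 2 and 3. Adipoq and Plin1 were too low to be tested. The part of fat cells in the level of Cidea was not tested. Next to Cidea, Tubb6, a beta-tubulin, was at 10.7, 12.3 and 16.3 in WT against 16.8, 23.6 and 18.6 in Mc4r KO hearts, with a narrow gap between WT replicate 3 and Mc4r KO replicate 1 (log2 fold change 0.59, standard error 0.18, adjusted p = 0.145, limma). It was called without WT replicate 3 (adjusted p = 0.037, limma), and with the mitochondrial share as a covariate its log2 fold change was 0.25 (adjusted p = 0.798). The neighbouring Afg3l2, a subunit of the m-AAA protease of the inner mitochondrial membrane, was at 44.3, 47.8 and 45.2 in WT against 51.4, 58.6 and 49.7 in Mc4r KO hearts (log2 fold change 0.22, adjusted p = 0.234, limma). Cidea, Tubb6 and Afg3l2 start within 0.1 Mb of each other, and all 3 were higher in each Mc4r KO library than in any WT library. Of all genes tested 26.4% had no overlap between the groups, and of the protein-coding genes 31%. The next tested genes on either side of these 3, Impa2 (log2 fold change 0.22) and Prelid3a (-0.42), had overlapping groups. Prelid3a was weakly expressed, with 2 to 14 reads per library.

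**Figure D2:**
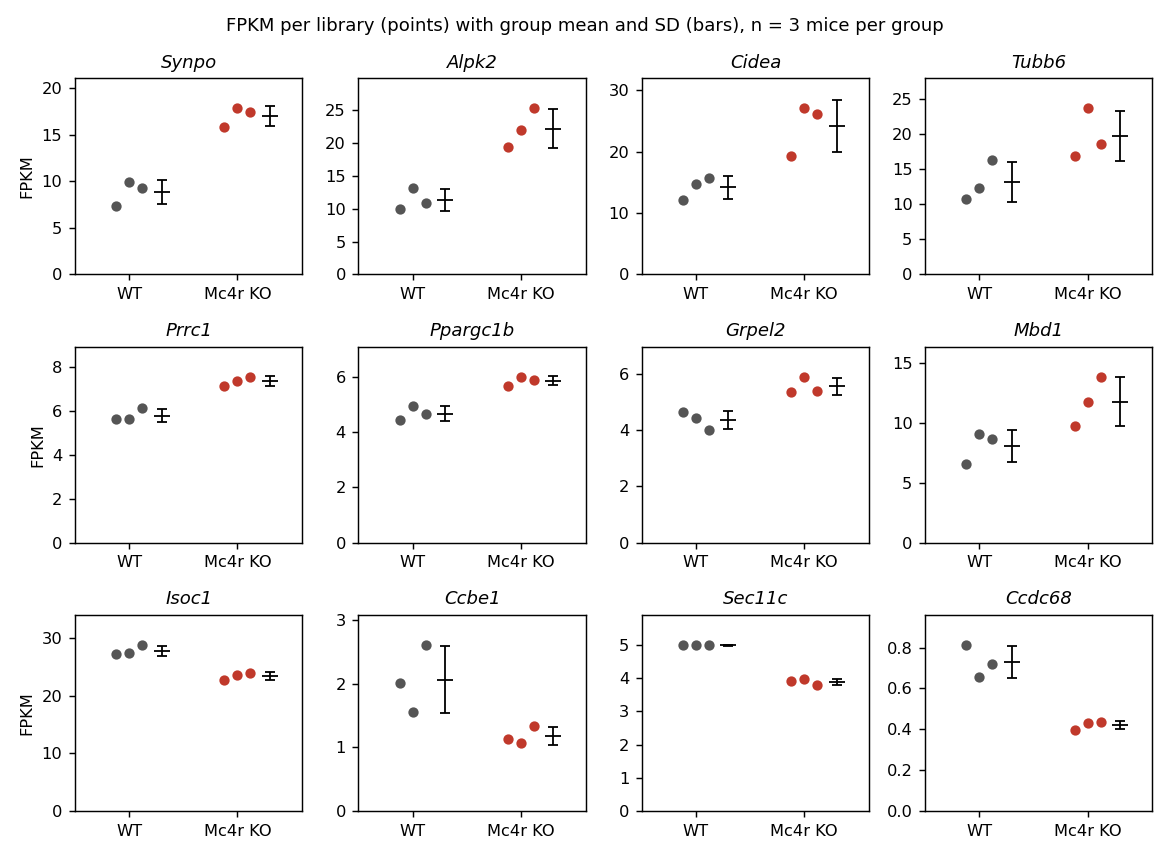
FPKM of 12 flanking genes in each library (y axes, starting at 0), with WT in grey and Mc4r KO in red, and the group mean and SD (n = 3) as black bars. The groups do not overlap in any of the 12, which were picked for display from the genes at the lowest p, and the WT libraries of Sec11c lie almost on one value near 5.

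By distance, the share of tested genes without overlap between the groups was 14 of 29 (48.3%) under 2.5 Mb from Mc4r, 4 of 14 (28.6%) between 2.5 and 5 Mb, 11 of 32 (34.4%) between 5 and 7.5 Mb and 3 of 19 (15.8%) between 7.5 and 10 Mb, against 26.4% of all genes. Among the protein-coding genes tested, 31% had no overlap. Within the nearest class the share was 6 of 11 at lower and 8 of 18 at higher coordinates. At an unadjusted p under 0.05 the numbers were 7 of 29 (24.1%), 2 of 14 (14.3%), 9 of 32 (28.1%) and 2 of 19 (10.5%), against 20.9% of all genes, with no steady order by distance. The median absolute log2 fold change was 0.22, 0.16, 0.24 and 0.16 in the 4 classes and 0.26 over all genes tested. Over the protein-coding genes tested it was 0.22, and 23.8% of them had an unadjusted p under 0.05. Across the 94 genes, the absolute log2 fold change had a Pearson r of -0.085 and a Spearman rho of -0.084 with the distance, over points that share the same 6 libraries. The classes hold few genes, and these shares are descriptions without a test.

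**Figure D3:**
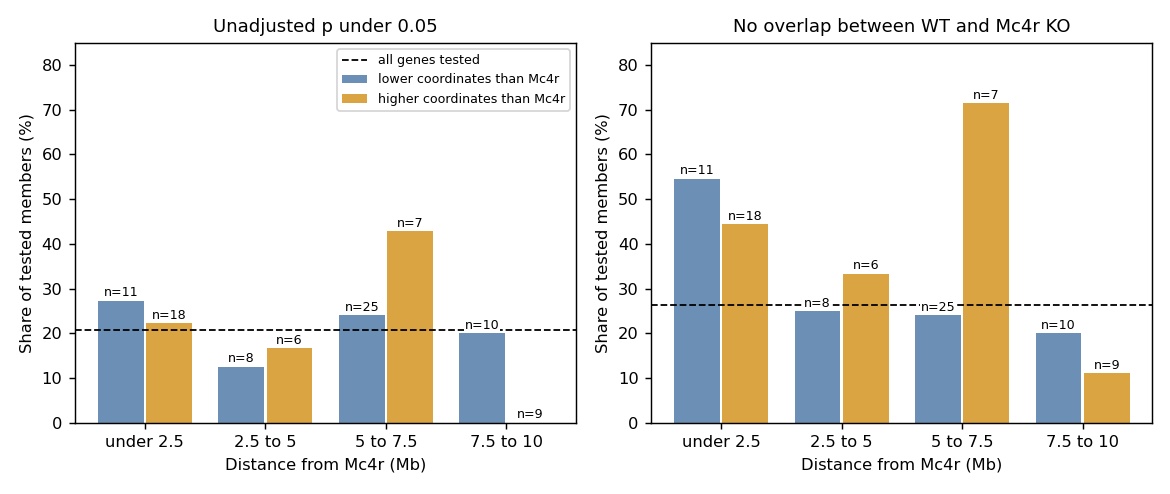
Share of the tested flanking genes (y axes, in percent) at an unadjusted p under 0.05 (left) and without overlap between the WT and Mc4r KO libraries (right), by distance from Mc4r in Mb (x axes) and side, with n tested genes above each bar. The dashed lines give the shares over all genes tested, 20.9% and 26.4%, and the highest bar on the right rests on 7 genes. Over the protein-coding genes tested the shares were 23.8% and 31%.

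Neighbouring genes were also compared with each other. The log2 fold changes had the same sign in 46 of 93 pairs of adjacent tested flanking genes (49.5%), and in 57.3% of 13505 such pairs of protein-coding genes over all chromosomes. The correlation between the members of a pair was r = 0.20 among the flanking genes and 0.14 over all chromosomes, which is across genes that share the same 6 libraries. Of 4 flanking pairs that start back to back within 1 kb, 2 had the same sign, as had 62.1% of 892 such pairs of protein-coding genes over all chromosomes.

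The genes of muscle, actin and the cytoskeleton were listed with earlier results of these data known, and their difference from other genes was not tested. They held both of the calls among their 10 tested members, where 0.46% of all genes and 0.443% of the protein-coding genes tested were called. Of the 10, 5 had an unadjusted p under 0.05, against 20.9% of all genes and 23.8% of the protein-coding genes tested. Beside Synpo, Alpk2 and Tubb6, these were Arhgef37, a guanine nucleotide exchange factor, at 0.987, 0.926 and 0.853 in WT against 1.39, 1.49 and 1.14 in Mc4r KO hearts (log2 fold change 0.49, adjusted p = 0.164, limma), and Afap1l1, an actin filament-associated protein, at 35.4, 29.9 and 31.0 in WT against 26.1, 29.0 and 23.6 in Mc4r KO hearts (log2 fold change -0.29, adjusted p = 0.198, limma). Arhgef37 was higher and Afap1l1 lower in each Mc4r KO library than in any WT library, so the direction within the list was mixed. Ablim3, an actin-binding LIM protein, overlapped between the groups at 20.9, 22.002 and 14.7 (WT) and 18.3, 15.9 and 17.8 (Mc4r KO).

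Of 14 tested genes of mitochondria, lipid and haem metabolism none was called, and 6 had an unadjusted p under 0.05, against 20.9% of all genes and 23.8% of the protein-coding genes tested. Of the 6, Mc4r KO was above WT in 4 and below it in 2. Ppargc1b (chromosome 18, 61298136 to 61400431), a coactivator of nuclear receptors that drive mitochondrial genes, was at 4.43, 4.94 and 4.64 in WT against 5.67, 6.005 and 5.89 in Mc4r KO hearts (log2 fold change 0.32, standard error 0.0927, adjusted p = 0.126, limma). Grpel2, an exchange factor of the mitochondrial chaperone Hsp70, was at 4.66, 4.44 and 4.01 in WT against 5.37, 5.91 and 5.40 in Mc4r KO hearts (log2 fold change 0.34, standard error 0.10, adjusted p = 0.135, limma). Both were higher in each Mc4r KO library than in any WT library, as were Cidea and Afg3l2. Isoc1, an isochorismatase domain protein, was lower in each, at 27.2, 27.4 and 28.8 in WT against 22.6, 23.6 and 24.0 in Mc4r KO hearts (log2 fold change -0.25, adjusted p = 0.135, limma), and so was the mitochondrial malic enzyme Me2, at 4.33, 4.08 and 3.90 in WT against 3.25, 3.51 and 3.53 in Mc4r KO hearts (log2 fold change -0.25, adjusted p = 0.22, limma). Fech, which inserts iron into protoporphyrin to form haem, had an FPKM of 58.2, 56.7 and 48.4 in WT against 44.8, 47.4 and 47.9 in Mc4r KO hearts. Its groups were separated by a narrow gap below WT replicate 3 (log2 fold change -0.22, adjusted p = 0.251, limma).

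Among the receptors and signalling genes, 9 of 11 were tested and none was called, with 2 at an unadjusted p under 0.05 (20.9% of all genes). Csf1r, the receptor of macrophages for colony-stimulating factor 1, had an FPKM of 13.4, 12.1 and 15.6 in WT against 11.9, 10.4 and 9.31 in Mc4r KO hearts, with WT replicate 3 highest and the Mc4r KO libraries below the WT libraries (log2 fold change -0.37, standard error 0.13, adjusted p = 0.183, limma). Exons of Hmgxb3 on the opposite strand cover 15.1% of its exonic sequence, and Hmgxb3 itself overlapped between the groups at 3.61, 4.04 and 3.72 (WT) and 3.78, 4.36 and 4.31 (Mc4r KO). In tissue RNA, fewer cells of a type and less RNA per cell cannot be told apart. The 6 macrophage markers gave mixed values, since Cd68 (log2 fold change -0.42) and Mrc1 (-0.40) were lower and C1qa (0.63), C1qb (0.31) and C1qc (0.34) higher in the Mc4r KO mice, and Adgre1 was at -0.0348. Their summed FPKM was from 80.1 to 149 in WT against 113 to 142 in Mc4r KO hearts, and none of the 6 was called, with adjusted p between 0.186 and 0.942 (limma). Pdgfrb, the receptor for platelet-derived growth factor on pericytes and other mural cells, overlapped at 17.4, 20.2 and 15.2 (WT) and 17.6, 16.7 and 14.8 (Mc4r KO) (log2 fold change -0.10, adjusted p = 0.695, limma), and 4 mural cell markers summed to 309.8, 289 and 194 in the WT and 209.5, 216 and 199 in the Mc4r KO libraries. The fibroblast markers Pdgfra, Dcn and Lum were lower in each Mc4r KO library than in any WT library. Over all genes tested 26.4% had no overlap, and over the protein-coding genes 31%. Col1a1 overlapped and went the other way (log2 fold change 0.44, adjusted p = 0.371, limma). None of the 4 markers was called, and their sum lay from 166 to 176 in WT against 121 to 139 in Mc4r KO hearts. The part of these cell types in the values of Csf1r and Pdgfrb was not tested. Csnk1a1, a kinase of the Wnt pathway, had overlapping groups at 21.5, 19.3 and 19.5 (WT) and 20.9, 22.2 and 20.1 (Mc4r KO).

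The SMAD genes carry signals of TGF-beta from its receptors to the nucleus. The region holds Smad2, which the receptors phosphorylate, Smad4, the common partner, and Smad7, an inhibitor, together with Ldlrad4 and the ubiquitin ligase Nedd4l, which also restrain the pathway. None of these 5 was called, none had an unadjusted p under 0.05, and the groups overlapped in all of them. Smad4 had an FPKM of 14.2, 15.5 and 13.7 in WT against 14.3, 14.8 and 14.5 in Mc4r KO hearts (log2 fold change 0.00743, adjusted p = 0.975, limma). Smad2 was at 5.12, 5.14 and 4.47 in WT and 3.88, 4.82 and 4.48 in Mc4r KO mice, with a log2 fold change of -0.16. The Smad7 FPKM was 3.76, 4.33 and 6.30 in WT against 7.48, 6.22 and 5.09 in Mc4r KO hearts, with WT replicate 3 the highest WT library and a log2 fold change of 0.39 (adjusted p = 0.353, limma). For Ldlrad4, exons of Fam210a and of a microRNA gene on the opposite strand cover 52.1% of the exonic sequence. Outside the region, 0 of 7 other genes of the pathway (Smad1, Smad3, Smad5, Smad6, Smad9, Smurf1 and Smurf2) were called by limma, with 3 at an unadjusted p under 0.05. These were Smad6 (log2 fold change 0.65), Smad1 (-0.47) and Smad5 (-0.25), with adjusted p of 0.129, 0.128 and 0.163 (limma), and no overlap between the groups. Over all genes tested 20.9% had such an unadjusted p and 26.4% had no overlap, and over the protein-coding genes 23.8% and 31%. The difference between these short lists was not tested.

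Of 9 tested genes of transcription and chromatin none was called, 2 had an unadjusted p under 0.05, and 5 had no overlap between the groups, against 26.4% of all genes and 31% of the protein-coding genes tested. Mbd1 and Mbd2 encode proteins that bind methylated CpG sites. The FPKM of Mbd1 was 6.53, 9.04 and 8.65 in WT against 9.72, 11.7 and 13.9 in Mc4r KO hearts, with all Mc4r KO libraries above the WT libraries (log2 fold change 0.54, standard error 0.17, adjusted p = 0.149, limma). Mbd2 was at 26.7, 26.1 and 24.7 in WT against 23.5, 23.9 and 21.7 in Mc4r KO hearts, with all Mc4r KO libraries below (log2 fold change -0.17, standard error 0.0798, adjusted p = 0.287, limma). Cxxc1, which binds unmethylated CpG sites and is a neighbour of Mbd1, was at 9.83, 13.3 and 14.2 in WT against 16.3, 14.2 and 14.9 in Mc4r KO hearts, where Mc4r KO replicate 2 lay only just above WT replicate 3 (log2 fold change 0.30, adjusted p = 0.306, limma). Mex3c, an RNA-binding ubiquitin ligase, was lower in each Mc4r KO library, at 5.31, 6.15 and 5.29 in WT against 4.83, 4.58 and 4.45 in Mc4r KO hearts (log2 fold change -0.27, adjusted p = 0.208, limma).

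Among the genes of RNA, protein synthesis and secretion all 16 were tested and none was called, and Sec11c alone had an unadjusted p under 0.05. The median absolute log2 fold change of this list was 0.11, that of the protein-coding genes tested was 0.22 and that of all genes tested was 0.26. Nars, the asparaginyl-tRNA synthetase, was at 24.0, 26.0 and 24.3 in WT against 24.7, 27.0 and 23.5 in Mc4r KO hearts, and the thioredoxin-like Txnl1 was at 24.6, 24.0 and 21.4 in WT against 23.0, 27.3 and 25.1 in Mc4r KO hearts, both with overlapping groups. The 7 genes of matrix and glycosaminoglycans were all tested, and apart from Ccbe1 none had an unadjusted p under 0.05. Ndst1, a sulfotransferase of heparan sulfate, was at 10.4, 10.5 and 11.8 (WT) and 10.7, 12.2 and 11.3 (Mc4r KO), and the sulfate transporter Slc26a2 at 1.10, 1.06 and 1.33 (WT) and 0.906, 1.09 and 1.05 (Mc4r KO), with overlap in both.

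The list of cell cycle, apoptosis, DNA repair and immunity had 8 tested genes and no call. Its gene with the lowest p was Cep192, a scaffold of the centrosome, at 1.02, 0.798 and 0.894 in WT against 0.692, 0.585 and 0.549 in Mc4r KO hearts (log2 fold change -0.50, adjusted p = 0.198, limma). Psmg2, a chaperone of proteasome assembly, was at 17.1, 18.5 and 18.1 in WT against 18.6, 19.95 and 18.5 in Mc4r KO hearts, where all Mc4r KO libraries were above the WT libraries by a very narrow gap (log2 fold change 0.0869, adjusted p = 0.566, limma). Seh1l, a protein of the nuclear pore, had overlapping groups at 8.57, 8.38 and 9.67 (WT) and 8.76, 8.72 and 8.46 (Mc4r KO). Cd74, the invariant chain that accompanies MHC class II molecules, was at 76.0, 74.4 and 121 in WT against 149, 89.3 and 52.2 in Mc4r KO hearts. The groups overlapped widely, and the spread within each was larger than the difference between their means (log2 fold change 0.00869, standard error 0.37, limma). The 6 further genes of the MHC class II pathway (H2-Aa, H2-Ab1, H2-Eb1, H2-DMa, H2-DMb1 and Ciita) summed to 79.1, 76.9 and 131 in the WT and 166, 84.96 and 52.1 in the Mc4r KO libraries. Both rankings ran from Mc4r KO replicate 1 as the highest library to Mc4r KO replicate 3 as the lowest. None of the 6 was called, with adjusted p between 0.672 and 0.992 (limma), and the sum of 4 B cell markers lay from 1.19 to 2.80 in WT against 0.422 to 0.590 in Mc4r KO hearts.

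At 1 place in the region a single library stood far from the others. Iigp1, Gm4841 and F830016B08Rik lie next to each other, Iigp1 at 6.48 Mb from Mc4r, and Iigp1 is an interferon-inducible GTPase of the defence against intracellular pathogens. The FPKM of Iigp1 was 15.7, 9.28 and 39.5 in WT against 16.2, 7.61 and 11.0 in Mc4r KO hearts. That of F830016B08Rik was 3.23, 2.43 and 20.3 (WT) and 5.71, 1.94 and 2.44 (Mc4r KO), and that of Gm4841 was 0.225, 0.0981 and 9.43 (WT) and 1.63, 0 and 0.0879 (Mc4r KO). WT replicate 3 was the highest library in all 3 genes and Mc4r KO replicate 1 the next, while the other libraries overlapped. The log2 fold changes were -0.69, -0.84 and -1.41, with standard errors of 0.51, 0.79 and 1.62 and adjusted p of 0.493, 0.575 and 0.657 (limma). Without WT replicate 3 they were -0.12, 0.10 and 0.33. Gm4951, which lies beside them, was highest in Mc4r KO replicate 1, at 0.268, 0.263 and 0.533 (WT) and 1.24, 0.274 and 0.259 (Mc4r KO). Of the 50-base words of Gm4841, 10.04% also occur in other genes.

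**Figure D4:**
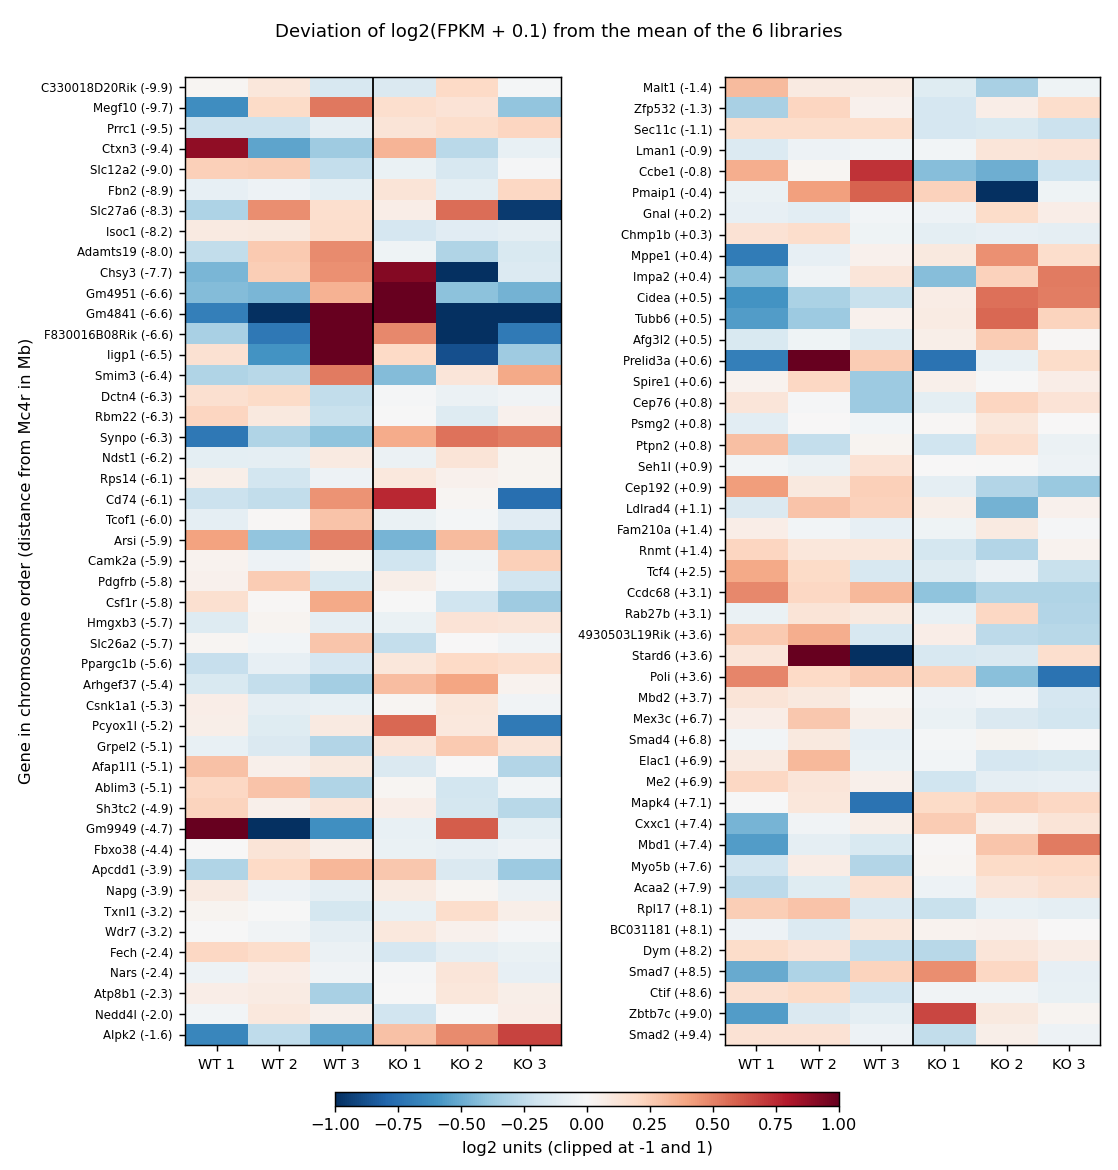
Deviation of log2(FPKM + 0.1) from the mean of the 6 libraries (colour, clipped at -1 and 1) for 93 of the 94 tested flanking genes, in chromosome order from top left to bottom right with the distance from Mc4r in Mb in parentheses. WT replicate 3 stands out at Gm4841, F830016B08Rik and Iigp1, while Synpo and Alpk2 differ in colour between the groups.

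Of the genes outside the lists of function, Prrc1 had an FPKM of 5.63, 5.63 and 6.14 in WT against 7.15, 7.39 and 7.58 in Mc4r KO hearts. The groups were apart by more than the range within either (log2 fold change 0.34, standard error 0.0883, adjusted p = 0.107, limma), at 9.51 Mb from Mc4r near the edge of the region. Ccdc68, a coiled-coil protein of the centriole, was at 0.814, 0.656 and 0.722 in WT against 0.396, 0.432 and 0.434 in Mc4r KO hearts, so that the Mc4r KO libraries lay below the WT libraries at a low level (log2 fold change -0.67, standard error 0.20, adjusted p = 0.132, limma). It had between 15 and 30 reads per library. Rpl17, a protein of the large ribosomal subunit, was at 55.6, 57.3 and 42.4 in WT against 40.2, 44.6 and 44.0 in Mc4r KO hearts, with overlapping groups, and 44.7% of its 50-base words occur in other genes. Arhgef37, Isoc1, Me2, Mex3c, Cep192, Hmgxb3, Ldlrad4, Nedd4l, Gm4951, Rpl17 and Prelid3a were picked for description after their values were seen. In 12 of the 94 tested genes, exons of another gene cover more than 5% of the exonic sequence.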

How the data were processed

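RNA of 3 WT and 3 Mc4r KO hearts was sequenced as paired ends after poly(A) selection (NEBNext Ultra kit). The authors trimmed reads, aligned them to mm10 with HISAT2 2.0.5, counted them with featureCounts and tested the counts with DESeq2. The labels' processing notes also name CASAVA. The deposited FPKM were made by the authors from those counts, and their annotation release and strand setting are not given in the sources used here. Titles of the samples say muscle and their tissue labels say heart, and markers of heart muscle were high. The study's discussion names the left ventricle.

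Since the deposited unit is FPKM, limma 3.58.1 (R 4.3.3) with an intensity trend was used on log2(FPKM + 0.1). It was run after median-of-ratios scaling, for the 18035 genes whose mean FPKM reached 0.1. That scaling left the values as they were, because its factor was 1 for every library as deposited. The deposited values were thus already level between libraries by this measure, and were not scaled to the reads on genes alone. The FPKM times gene length were whole multiples of the value of 1 read for 100% of the values checked, within 0.05 read and the rounding of the file, which gave the reads per library (14691076 to 16047003) and the input of limma voom. On simulated data for this comparison (17941 genes), limma found 36.1% of the genes with an absolute log2 fold change of 1 and 78.3% of those with 2, with 24 false calls. Limma voom found 51.8% and 92.5%, with 1 false call. The simulation gave every gene the same dispersion, with no outlying library and no difference in mitochondrial share between groups. These rates therefore describe that setting and not the deposited libraries.

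The flanking genes, their lists of function and the marker lists were chosen with earlier results of these data known. The text names genes that were called, the 10 with the lowest p, the 5 nearest to Mc4r on each side, the 5 largest and 5 smallest log2 fold changes at a mean FPKM of at least 1, the 3 highest of each list and the melanocortin receptors. Positions are those deposited (mm10). Exon overlaps and shared 50-base words come from GENCODE M21, which held 99.9% of the gene identifiers. Alternatives changed the pseudocount, filter, scaling, model, genes tested, window and libraries. WT and Mc4r KO libraries come from separate mice by the study's design text. A flanking gene that this rule names is not reported here, although it counts in the totals. No sequence is shown.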

Additional observations from a re-analysis of the deposited data

How the results depend on the processing

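The number of flanking genes called was 2 in limma on log2(FPKM + 0.1). It was 1 with a pseudocount of 1 and 0 with quantile normalization, with all genes that had any read, with levels scaled to the nuclear sum, without an intensity trend and with the mitochondrial share as a covariate. Under these 5 settings, in this order, 22, 20 (of 108 tested), 28, 15 and 16 flanking genes had an unadjusted p under 0.05, which is 23.4%, 18.5%, 29.8%, 16.0% and 17.0% of those tested, against 19.3%, 15.1%, 23.1%, 18.1% and 10.8% of all genes. Of all genes, 49, 22, 41, 21 and 2 were called under these 5 settings, in the same order, and 44 with the pseudocount of 1. The number of flanking genes called was 4 with limma voom on recovered reads, which called 317 of all genes. It was 1 within 5 Mb on each side, where only 43 genes were tested, and between 0 and 4 in the fits without 1 library. With the replicate number as a block, 0 flanking genes were called, with 19 at an unadjusted p under 0.05 (20.2%, against 19.1% of all genes), and 11 of all genes were called against 83 without it. Deviations from the group means of same-numbered libraries correlated at -0.14, 0.0074 and -0.082, and those of differently numbered libraries at -0.0321 to 0.115. These values showed no pairing by number, but with 3 libraries in each group they cannot exclude it. The median log2 fold change of flanking genes, -0.054, became -0.0225 with a pseudocount of 1, -0.0181 with a mean FPKM of at least 1, -0.0314 with array weights, -0.00922 with the covariate and -0.0893 within 5 Mb, and it was between -0.0695 and -0.0222 without 1 library. Scaled to the nuclear sum it was -0.23, where the median of all genes was -0.19. The groups did not overlap in 18 of the 43 genes within 5 Mb (26.4% of all genes and 31% of the protein-coding genes tested). With quantile normalization they did not overlap in 28 of 94, and with levels scaled to the nuclear sum in 31. The shares over all genes on these other scales are not given here, so these counts cannot be set against them. Of all genes tested, limma called 83, and between 2 and 726 under the alternatives. The call of Synpo was lost under 11 and that of Alpk2 under 12 of 21 alternatives, with limma's adjusted p from 0.00458 to 0.263 for Synpo and from 0.00523 to 0.263 for Alpk2. The cause of these changes was not tested.

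Of 52 tested flanking genes described in the text, with Prelid3a left out, 28 kept the sign of the log2 fold change under all of their alternatives. Signs turned, for genes that were not called, with quantile normalization (Acaa2 -0.0232, Rps14 -0.0731, Cd74 -0.20, Nars -0.11, Txnl1 -0.0234, Csnk1a1 -0.0508, Psmg2 -0.0159, Smad4 -0.10 and Ndst1 -0.0229), with levels scaled to the nuclear sum (Acaa2 -0.0419, Rps14 -0.079, Cd74 -0.19, Nars -0.18, Txnl1 -0.089, Csnk1a1 -0.13, Psmg2 -0.11, Smad4 -0.19, Lman1 -0.046, Ndst1 -0.13, Hmgxb3 -0.0649, Zfp532 -0.14 and Gnal -0.0243), with the covariate (Acaa2 -0.13, Cd74 -0.50, Rpl17 0.0933, Ablim3 0.27, Pdgfrb 0.15, Cxxc1 -0.0335, Ndst1 -0.0539, Impa2 -0.0917, Smad7 -0.12, Smad2 0.0435, Zfp532 -0.0888 and Gm4951 -0.44) and with array weights (Nars -0.00673, Smad4 -0.0278 and Seh1l 0.00245). Over the fits that each left out 1 library, the log2 fold changes of genes whose sign turned ran as Cd74 -0.36 to 0.39, Nars -0.039 to 0.0613, Pdgfrb -0.20 to 0.00308, Smad4 -0.0319 to 0.0555, Seh1l -0.0762 to 0.0286, F830016B08Rik -1.41 to 0.10, Zfp532 -0.11 to 0.16, Gm4841 -2.63 to 0.33 and Gm4951 -0.26 to 0.69. Depth limits the 7 tested genes with fewer than 10 reads per library on average.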
